A study of Homo sapiens with 9 samples.

Results

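The protocadherin genes were taken as every gene of the count table whose symbol began with PCDH and whose biotype was protein-coding, which gave 66 of 58735 genes. Of these, 53 lay in the 3 clusters on chromosome 5 (15 alpha, 16 beta and 22 gamma genes) and 13 lay outside them (nonclustered). RNA was sequenced from MIA PaCa-2 cells, an established human pancreatic cancer line labelled wild type, after 24 h in 0.1% DMSO, in 1 µM compound 1 (an inhibitor of the kinases TBK1 and IKKε) or in 1 µM SCH772984 (an inhibitor of the kinases ERK1/2). Each group had 3 libraries, and the labels do not say whether the replicates were separate cultures, so the p-values measure the spread between these libraries, which may be technical.

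Protocadherins are cadherin-superfamily adhesion proteins of the cell surface, best known in neurons, where combinations of the clustered isoforms let a cell tell its own processes from those of other cells. Each alpha or gamma gene has its own large first exon, with its own promoter, which codes for the ectodomain, the membrane span and part of the tail, and this exon is spliced to 3 exons at the end of the cluster that all genes of that cluster share. The beta genes have a single coding exon and no shared tail. The nonclustered genes are scattered, have tails of their own and are grouped into the delta1 genes (PCDH1, PCDH7, PCDH9, PCDH11X, PCDH11Y) and the delta2 genes (PCDH8, PCDH10, PCDH17, PCDH18, PCDH19).

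Most promoters of clustered genes carry a conserved element around the letters CGCT, near which the insulator protein CTCF binds. Those of PCDHAC2, PCDHB1, PCDHGC4 and PCDHGC5 are known to lack it, so that CGCT in the window of PCDHAC2 marks the letters and not the element. RefSeq promoters (GRCh38.p14, 250 bases before to 50 after the start) were matched by symbol for 58 of the 66 genes. The windows below run from 90 to 31 bases before the start, on the plus strand, with CGCT in capitals. They show genes of each cluster that were higher with SCH772984, among them PCDHGB2, which has no CGCT there, followed by PCDHB4, PCDHGA3 and PCDHB5, which had no read in any library and of which PCDHB5 has no CGCT there.
PCDHA4, chr5:140806978-140807037: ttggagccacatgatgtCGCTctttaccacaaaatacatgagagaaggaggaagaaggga
PCDHAC2, chr5:140966386-140966445: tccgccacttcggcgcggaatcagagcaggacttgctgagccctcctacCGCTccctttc
PCDHB12, chr5:141208629-141208688: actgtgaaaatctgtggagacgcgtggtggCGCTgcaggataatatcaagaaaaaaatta
PCDHB14, chr5:141223253-141223312: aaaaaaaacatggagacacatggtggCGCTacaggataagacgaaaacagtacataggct
PCDHGA10, chr5:141412897-141412956: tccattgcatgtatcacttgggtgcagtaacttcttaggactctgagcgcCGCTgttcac
PCDHGB2, chr5:141360046-141360105: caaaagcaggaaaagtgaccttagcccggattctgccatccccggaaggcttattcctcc
PCDHGB7, chr5:141417587-141417646: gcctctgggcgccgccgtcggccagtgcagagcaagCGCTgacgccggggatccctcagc
PCDHGC3, chr5:141475876-141475935: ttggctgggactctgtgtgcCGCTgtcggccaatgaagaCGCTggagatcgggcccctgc
PCDHB4, chr5:141121728-141121787: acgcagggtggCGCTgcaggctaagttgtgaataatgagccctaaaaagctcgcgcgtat
PCDHGA3, chr5:141343739-141343798: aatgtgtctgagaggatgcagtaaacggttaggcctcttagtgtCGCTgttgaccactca
PCDHB5, chr5:141135116-141135175: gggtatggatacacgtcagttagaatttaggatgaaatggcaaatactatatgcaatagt

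In this window, CGCT on the strand of the gene was present in 42 of 47 clustered promoters (12 of 13 alpha, 12 of 14 beta and 18 of 20 gamma), in 3 of 11 nonclustered promoters and in 6318 of 35116 promoters of all genes (18.0%). On either strand it was present in 42 of the 47 and in 31.5% of all promoters, and over the whole promoter in 46 of the 47 and in 70.0% of all. The bounds of the window were chosen after the positions had been seen. The 10-base run most shared among beta promoters was GGTGGCGCTG, which contains CGCT and was found in 12 of 14 beta promoters and in 0.276% of all promoters on either strand. The most shared run of the gamma promoters, GCGCCGCTGT, also contains CGCT and was found in 9 of 20, and that of the alpha promoters, ATGATGTCGC, which does not contain it whole and tied with others, in 8 of 13. By reads in the libraries, CGCT was present in 10 of 11 clustered genes with enough reads to be tested, in 28 of 31 with fewer reads and in 4 of 5 with none. A match of 4 letters is a description of the sequence and not a binding site.

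**Figure D1:**
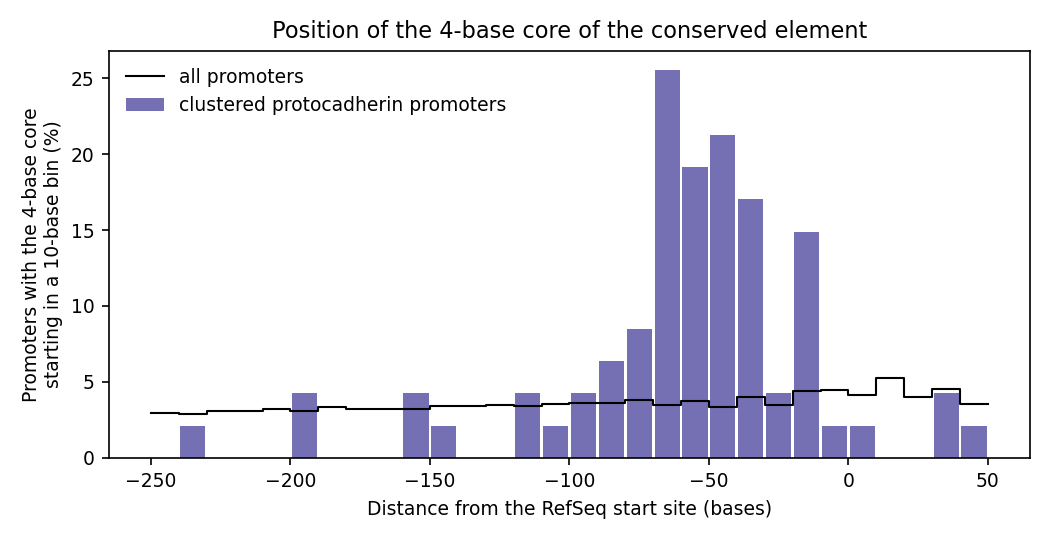
Share of promoters (%) with the 4-base core starting in each 10-base bin, against distance from the RefSeq start site in bases. Bars are the 47 clustered protocadherin promoters and the black line is all 35116 promoters; the bars stand above the line mainly between 90 and 31 bases before the start.

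The shared exons limit what a gene-level count can mean. In GENCODE release 29 the alpha genes share exons of 59, 89 and 2718 bases (chr5:140978949-140979007, chr5:140982475-140982563 and chr5:141009627-141012344), each annotated in all 15 genes. The gamma genes share exons of 59, 89 and 2033 bases (chr5:141494807-141494865, chr5:141505393-141505481 and chr5:141510947-141512979), each annotated in all 22. The first shared exon of each cluster, read from hg38 on the plus strand, is shown to let the tails be compared.
Alpha, first shared exon: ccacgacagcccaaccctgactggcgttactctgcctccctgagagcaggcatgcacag
Gamma, first shared exon: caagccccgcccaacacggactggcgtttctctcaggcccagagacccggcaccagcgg
Compared position by position without gaps, these exons were identical at 39 of 59 bases, and the second shared exons at 29 of 89. The alpha and gamma tails thus differ in sequence in these exons, but no gapped alignment was made. The third, longest exons were not compared. Of the distinct runs of 100 bases in the transcripts of a gene, a median of 45.6% in an alpha gene also occur in another PCDH-named gene. The median was 43.1% in a gamma gene and 6.04% in a beta gene. Among the nonclustered genes, such runs were found only in PCDH11X and PCDH11Y, and genes of other names were not searched for them. PCDHGA3, which contains the same shared exons as PCDHGC3, had no read in any library while PCDHGC3 had 401 to 1363, so reads in those exons had not been credited to every gene. The counts of alpha and gamma genes were therefore read as those of their own exons, with the uncertainty that the rule for shared reads is not given in the sources used here. The exons of 4 tested members, PCDHAC2, PCDHB11, PCDHGB1 and PCDH9, partly overlap an annotated antisense gene, and reads in the overlap could not be told apart, as the strand setting of the counting is also not given. The overlap leaves 30800 of 30944 exon bases of PCDH9 free, and 4067 of 4198 of PCDHB11. It takes more of the exon bases that are not shared within the cluster, leaving 2038 of 2592 in PCDHGB1 and 3196 of 3452 in PCDHAC2. PCDHB14 shares exon bases on its own strand with AC244517.10, which had no read in any library.

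The libraries held 9464432 to 10286223 counts with DMSO, 9652741 to 9840769 with compound 1 and 11056977 to 13887859 with SCH772984. Genes with a read numbered 18808 to 19224, 19811 to 20356 and 21381 to 22981, so that more genes were detected in the inhibitor groups, and the part of this in the protocadherin counts was not tested. The ERK output genes chosen as a check of the label (DUSP6, SPRY4, ETV5 and others) were lower with SCH772984 in 9 of 9 and called with compound 1 in 0 of 9 by edgeR or DESeq2 (3 of 9 at an unadjusted edgeR p under 0.05). KRT8 and VIM were abundant in DMSO, at means of 2488 and 2473 CPM (counts scaled to a common library total, with TMM factors), whereas EPCAM had no read in any library. Of the markers of other cell types, PTPRC and CD3E (leukocytes) and STMN2 (neurons) were at 0 in all 9 libraries. The 6 neuronal markers summed to 16.0 to 20.1 CPM with DMSO and 19.8 to 22.9 CPM with SCH772984, and 2 of the 4 tested (TUBB3 and ELAVL3) were called higher with SCH772984, where 37.2% of all genes were. The 5 fibroblast markers summed to 457 to 506 CPM with DMSO and 991 to 1120 CPM with SCH772984, almost all of it COL1A2, which was higher, and 2 of the 5 had no read with DMSO. ELAVL3 and the other fibroblast markers tested and called higher, COL1A1 and PDGFRB, had under 10 reads in every DMSO library and could be tested only through their SCH772984 libraries. Of all 755 such genes 93.2% were called higher, so their calls are not counted as support. Of the 3 epithelial markers tested, KRT8 and KRT18 were lower with SCH772984, and of the mesenchymal markers FN1 was higher and VIM lower. The endothelial marker CDH5 was the only 1 of its list that could be tested and was lower. The part of these markers in the protocadherin values was not tested. Compound 1 replicate 1 stood apart from the other 2 compound 1 libraries, with a chi-square per degree of freedom of 10.1 and 7.61 against them and of 2.66 between those. Some results with compound 1 are therefore also given without it, while the summed levels and most of the log2 changes are given only with it. In bulk RNA, more cells of a kind and more RNA per cell cannot be told apart.

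In DMSO, protocadherin RNA came almost wholly from PCDH1 and PCDHGC3, which held 94.3% ± 0.376 (SD, n = 3) of all protocadherin counts. Per kilobase of exon, PCDH1 stood at 22.7 ± 1.43 CPM (SD, n = 3) and PCDHGC3 at 11.8 ± 0.360, and no library of either overlapped the other. PCDHAC2 followed at 0.311 ± 0.0453 and PCDHGB1 at 0.269 ± 0.0364, which differed by less than their spread. PCDHA4 stood at 0.130 ± 0.0234 and PCDHB14 at 0.117 ± 0.0454, again within their spread. PCDHB14 had the highest mean of the beta genes, but PCDHB11 (0.111 ± 0.0404) could not be told apart from it. These levels use the whole exon length of a gene. Over the length that no other gene shares, PCDHGC3 came to 19.7 CPM per kilobase, and PCDHGB1 (0.630) stood level with PCDHAC2 (0.616).

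With SCH772984 the order changed. Over the whole exon length, PCDHGC3 was then the highest, at 17.9 ± 1.12 CPM per kilobase (SD, n = 3), and PCDH1 stood at 3.15 ± 0.407. PCDH18 (1.42 ± 0.263) and PCDHB14 (1.17 ± 0.142) came next, and differed by less than their spread. PCDH9 (0.983 ± 0.0920) and PCDHB11 (0.975 ± 0.0725) followed and could not be told apart. Over the unshared length, PCDHGB7 (1.41) and PCDHAC2 (1.29) also came close to PCDH18 (1.42). PCDHB14 stood at 1.21, PCDHB11 at 1.01 and PCDH9 at 0.988. The spread over this length was not computed, so these genes are not put in order. PCDH1 and PCDHGC3 together then held 56.0% ± 1.87 of the protocadherin counts. With compound 1 they held 93.4% ± 0.642.

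A read was found for 25 to 31 of the 66 genes in the DMSO libraries, for 28 to 31 with compound 1 and for 43 to 47 with SCH772984. Brought to the depth of the smallest library, the expected numbers were 24.9 to 31, 27.6 to 30.8 and 42.1 to 45.1. Over all libraries, 10 genes had no read (PCDHB1, PCDHB4, PCDHB5, PCDHB6, PCDHB16, PCDHGA3, PCDH11X, PCDH11Y, PCDH19 and PCDH20), 40 had reads but too few to be tested, and 16 were tested. A count of 0 over all 9 libraries allows up to 3 expected reads in their sum, so these 10 were not detected at this depth. For PCDH20, only 201 of 4778 exon bases lie outside AL592490.1, a gene annotated on the same strand, and PCDHB16 also overlaps other genes on its strand, so their counts of 0 depend as well on the rule for shared reads.

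**Figure D2:**
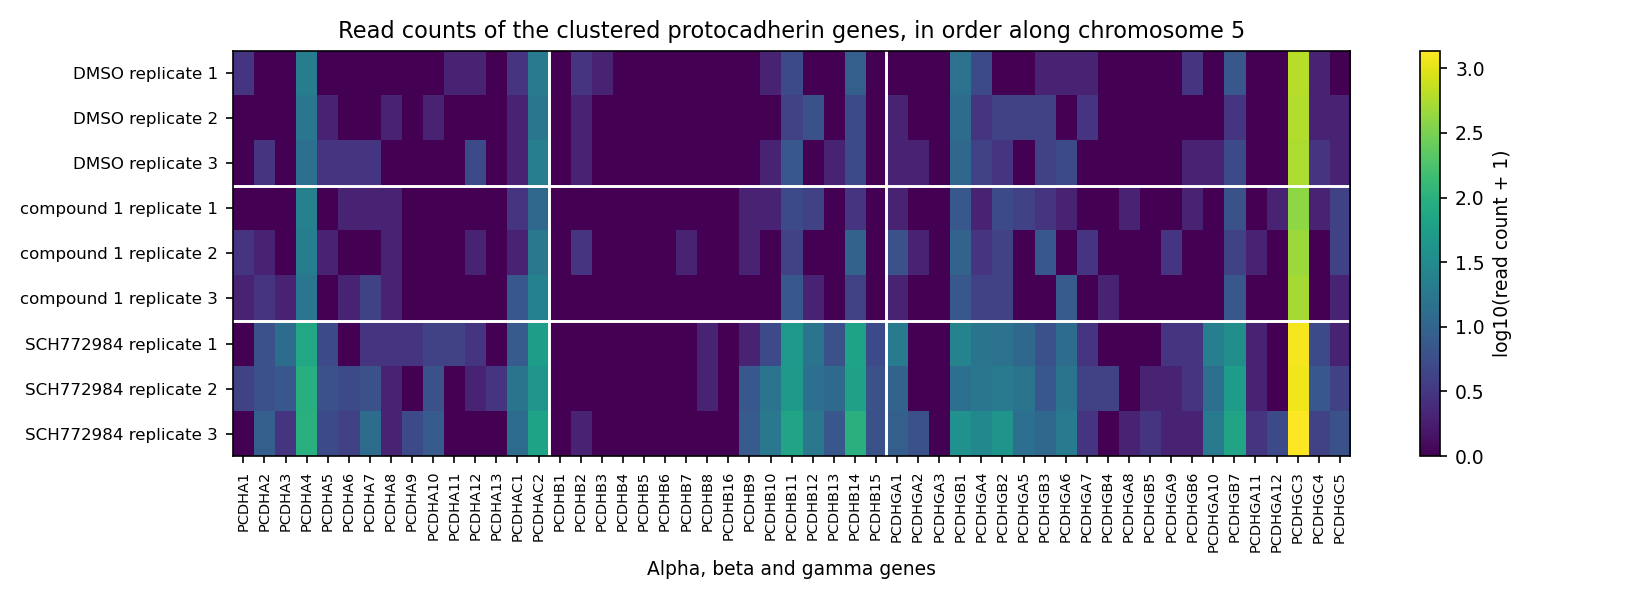
Read counts of the 53 clustered genes, in order along chromosome 5, as log10(count + 1) by colour, with 1 row per library and white lines between clusters and groups. PCDHGC3 is bright in all 9 rows, the SCH772984 rows are lighter across alpha, the end of beta and gamma, and the start of beta stays dark in all rows.

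The first comparison asked which protocadherin genes changed when ERK1/2 were inhibited. Of the 16 tested, 14 were higher with SCH772984 than with DMSO, 1 (PCDH1) was lower and 1 (PCDHGB1) was not called, with edgeR's quasi-likelihood test at a Benjamini-Hochberg adjusted p under 0.05. Over all 13834 genes tested, 72.8% were called, 37.2% higher and 35.5% lower. The count of members must be read with the filter on low counts: 10 of the 16 had fewer than 10 reads in every DMSO library and could pass only through their SCH772984 libraries, and among all 755 genes of that kind 704 (93.2%) were called higher. The 6 others were PCDHA4, PCDHAC2, PCDHGB1, PCDHGC3, PCDH9 and PCDH1, of which 4 were higher.

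**Figure D3:**
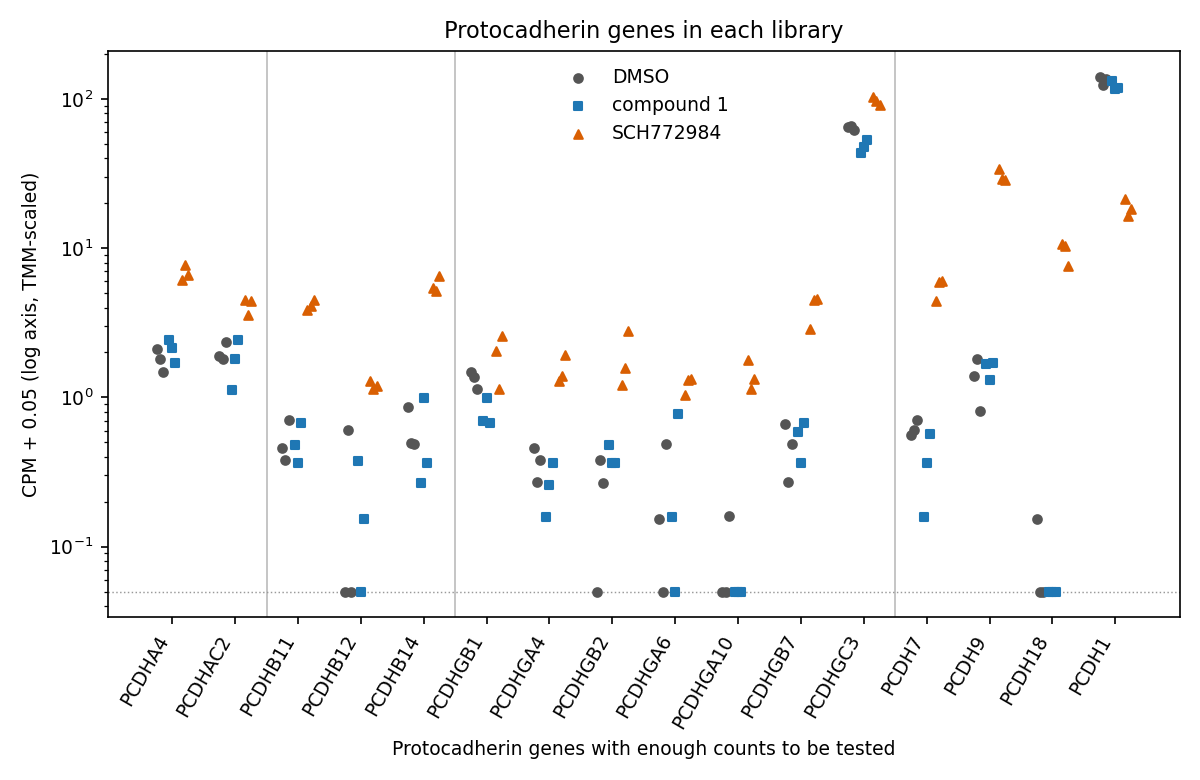
Level of each tested protocadherin gene in every library, as TMM-scaled CPM plus 0.05 on a log axis; circles are DMSO, squares compound 1 and triangles SCH772984, and the dotted line marks a count of 0. The triangles lie above the circles for all genes but PCDHGB1, where they overlap, and PCDH1, where they lie below.

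The summed level of the alpha genes was 14.7 ± 0.801 CPM in the SCH772984 libraries, against 4.54 ± 0.584 CPM in DMSO and 4.72 ± 0.822 CPM in compound 1 (SD, n = 3). PCDHA4 had 20, 16 and 13 reads in the DMSO libraries, 22, 20 and 16 with compound 1, and 73, 91 and 98 with SCH772984. All 3 SCH772984 libraries lay above every other library, and the log2 change against DMSO was 1.94 (SE 0.25, edgeR adjusted p = 4.89e-09). PCDHAC2, a C-type gene at the end of the cluster whose isoform is made constitutively in many neurons, had 18, 16 and 21 reads with DMSO, 10, 17 and 23 with compound 1, and 54, 42 and 65 with SCH772984. Its SCH772984 libraries were again all the highest, with a log2 change of 1.06 (SE 0.28, edgeR adjusted p = 0.000706). The other 13 alpha genes had too few reads to be tested, and none exceeded 15 in a library. PCDHAC1, the other C-type alpha gene, was the best covered of them, with 2, 1 and 1 reads with DMSO, 2, 1 and 6 with compound 1, and 7, 15 and 12 with SCH772984.

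The beta genes summed to 13.2 ± 1.37 CPM under SCH772984, against 1.5 ± 0.122 CPM in DMSO and 1.30 ± 0.330 CPM in compound 1 (SD, n = 3). PCDHB14 had 8, 4 and 4 reads with DMSO, 2, 9 and 3 with compound 1, and 65, 61 and 96 with SCH772984. PCDHB11 had 4, 3 and 6 reads with DMSO, the same 4, 3 and 6 with compound 1, and 46, 48 and 66 with SCH772984. In both genes the SCH772984 libraries stood far above the rest, with log2 changes against DMSO of 3.28 (SE 0.34) for PCDHB14 and 3.11 (SE 0.39) for PCDHB11 (edgeR adjusted p = 7.49e-12 and 1.02e-09). PCDHB12 had 0, 5 and 0 reads with DMSO, 3, 0 and 1 with compound 1, and 15, 13 and 17 with SCH772984. The groups did not overlap and the log2 change was 2.62 (SE 0.69, edgeR adjusted p = 0.000613), but DMSO replicate 2 alone set the DMSO level. Without that library the fitted change was 6.75, against a DMSO level of 0, and without DMSO replicate 1 it was 2.01.

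Reads in the beta cluster lay at its far end. The 7 genes from PCDHB9 to PCDHB15 held 37, 34 and 513 reads over the 3 libraries of DMSO, compound 1 and SCH772984. The 9 genes before them along the chromosome (PCDHB1 to PCDHB8 and PCDHB16) held 5, 3 and 3. The division was drawn after these counts were seen. Of the 4 genes at the far end that could not be tested, PCDHB10 had 1, 0 and 1 reads with DMSO and 4, 15 and 17 with SCH772984. PCDHB13 had 0, 0 and 1 with DMSO and 5, 11 and 6 with SCH772984. PCDHB8, PCDHB10 and PCDHB13 share more of their sequence with other PCDH-named genes than most beta genes do. Of their distinct runs of 100 bases, 25.7%, 24.7% and 15.1% also occur in another such gene, so their counts are the least certain.

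The gamma genes summed to 113 ± 4.05 CPM under SCH772984, 67.5 ± 1.76 CPM in DMSO and 51.3 ± 4.86 CPM in compound 1 (SD, n = 3). PCDHGC3, a C-type gene, made up 95.1% ± 0.504 of the gamma counts with DMSO, 93.5% ± 1.20 with compound 1 and 86.1% ± 2.40 with SCH772984. It had 633, 596 and 567 reads with DMSO, 401, 458 and 512 with compound 1, and 1247, 1151 and 1363 with SCH772984. Its groups did not overlap, and the log2 change with SCH772984 against DMSO was 0.59 (SE 0.07, edgeR adjusted p = 1.46e-09), a rise of 1.51-fold that was the smallest of the members called. Without PCDHGC3, the gamma genes summed to 15.6 ± 2.18 CPM under SCH772984, against 3.33 ± 0.268 CPM in DMSO and 3.33 ± 0.484 CPM in compound 1. The A-type genes (12 in all) held 24 reads in sum with DMSO and 257 with SCH772984, and the 7 B-type genes 63 and 334. These sums were not tested.

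Among the B-type gamma genes, PCDHGB7 had 6, 2 and 4 reads with DMSO, 5, 3 and 6 with compound 1, and 34, 53 and 67 with SCH772984. PCDHGB2 had 0, 3 and 2 reads with DMSO, 4, 3 and 3 with compound 1, and 14, 18 and 41 with SCH772984. Neither gene had an SCH772984 library that overlapped another group, and the log2 changes against DMSO were 3.16 (SE 0.41) for PCDHGB7 and 3.28 (SE 0.62) for PCDHGB2 (edgeR adjusted p = 3.18e-09 and 5.33e-06). For PCDHGB2 the change was 2.67 without DMSO replicate 1 and 3.97 without DMSO replicate 2. PCDHGB1, the best covered B-type gene in DMSO, had 14, 12 and 10 reads with DMSO, 6, 9 and 6 with compound 1, and 24, 13 and 38 with SCH772984. Its SCH772984 libraries overlapped those of DMSO, and the log2 change was 0.56 (SE 0.38, edgeR adjusted p = 0.174).

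Among the A-type gamma genes, PCDHGA4 had 4, 2 and 3 reads with DMSO, 1, 2 and 3 with compound 1, and 15, 16 and 28 with SCH772984. PCDHGA6 had 1, 0 and 4 reads with DMSO, 1, 0 and 7 with compound 1, and 12, 15 and 19 with SCH772984. The log2 changes against DMSO were 2.19 (SE 0.52) for PCDHGA4 and 2.65 (SE 0.66) for PCDHGA6 (edgeR adjusted p = 0.000199 and 0.000296), with no overlap between the groups. For PCDHGA6 the change was 4.20 without DMSO replicate 3, which held 4 of its 5 DMSO reads. PCDHGA10 had 1 read over the 3 DMSO libraries, none with compound 1, and 21, 13 and 19 reads with SCH772984. Its ratio of counts per scaled read against DMSO was 38.2, with an exact 95% counting interval of 6.56 to 1535 (edgeR adjusted p = 1.05e-06). The fitted change of a gene with so few control reads depends on the prior count and sets no bound. Without DMSO replicate 3, which held the only DMSO read, the fitted log2 change moved from 4.87 to 6.98.

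The nonclustered genes summed to 65.9 ± 4.91 CPM under SCH772984, against 137 ± 8.34 CPM in DMSO and 125 ± 7.85 CPM in compound 1 (SD, n = 3). PCDH1, a delta1 gene with known roles in airway epithelium, had 1381, 1132 and 1246 reads with DMSO, 1221, 1122 and 1137 with compound 1, and 256, 196 and 271 with SCH772984. It was the only tested member that was lower with SCH772984, by 2.85 on the log2 scale or 7.23-fold (log2 change -2.85, SE 0.09, edgeR adjusted p = 4.27e-30), and no SCH772984 library reached the level of another group. Its share of the nonclustered counts went from 98.1% ± 0.220 to 28.2% ± 2.16. PCDH1 (ENSG00000156453) lies on the minus strand at hg38 chr5:141853111-141879246, beyond the end of the gamma cluster at chr5:141512981.

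**Figure D4:**
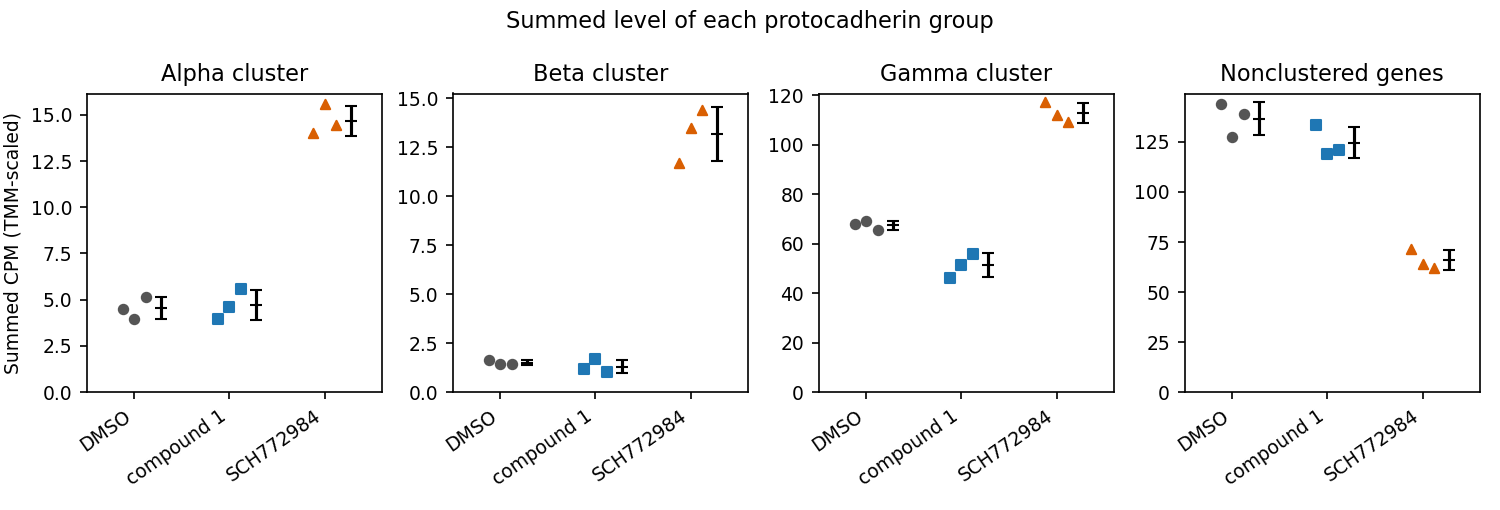
Summed TMM-scaled CPM of the alpha, beta, gamma and nonclustered genes in every library, with the mean and SD (n = 3) beside each group; each panel has its own axis from 0. The SCH772984 libraries are the highest in the 3 clusters and the lowest among the nonclustered genes.

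The other nonclustered genes that were called were higher with SCH772984. PCDH9, a delta1 gene of the nervous system (ENSG00000184226, hg38 chr13:66302834-67230445), had 13, 16 and 7 reads with DMSO, 15, 12 and 16 with compound 1, and 406, 347 and 424 with SCH772984. The SCH772984 libraries stood apart, and the log2 change was 4.55 (SE 0.20, edgeR adjusted p = 9.47e-25), or 23.4-fold. PCDH7, a delta1 gene whose tail binds the phosphatase inhibitor SET and the phosphatase PP1 (ENSG00000169851, hg38 chr4:30720415-31146805), had 5, 5 and 6 reads with DMSO, 1, 3 and 5 with compound 1, and 53, 70 and 89 with SCH772984. It rose by 3.22 on the log2 scale (SE 0.34, edgeR adjusted p = 1.59e-11). PCDH18, a delta2 gene (ENSG00000189184, hg38 chr4:137518918-137532494), had 1, 0 and 0 reads with DMSO, none with compound 1, and 129, 123 and 112 with SCH772984. The ratio of its counts per scaled read against DMSO was 262, with an exact 95% counting interval of 46.7 to 10377 (edgeR adjusted p = 1.78e-18), and its fitted log2 change of 7.65 became 9.75 without DMSO replicate 1, which held the only DMSO read. The intervals cover counting error only.

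Of the 9 other nonclustered genes, PCDH12, the vascular member on chromosome 5, had 2, 3 and 7 reads with DMSO, 1, 5 and 4 with compound 1, and 9, 13 and 15 with SCH772984. PCDH15, a component of the tip links of hair cells, had 2, 0 and 4 with DMSO, 6, 1 and 4 with compound 1, and 7, 9 and 7 with SCH772984. PCDH17 had none with DMSO, 0, 0 and 1 with compound 1, and 2, 4 and 7 with SCH772984. None of the 3 could be tested. Scaled by depth, the SCH772984 libraries lay above all others for PCDH17, while for PCDH12 they overlapped those of DMSO alone and for PCDH15 those of compound 1 alone. Over all 40 genes with reads but no test, the summed counts were 74 with DMSO, 93 with compound 1 and 466 with SCH772984, and the mean CPM was higher with SCH772984 than with DMSO in 35 and lower in 3. The same count was not made for other genes with few reads. With no filter, the median log2 change of all genes with a read was 0.36, against 0.03 for the genes tested. These counts are therefore not read as particular to the protocadherin genes.

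The second comparison asked the same of compound 1, against the same DMSO libraries. Of the 66 genes, 6 had enough reads to be tested against DMSO, and 0 were called by edgeR at an adjusted p under 0.05, where 0.864% of all 12849 genes tested were called, 0.49% higher and 0.374% lower. PCDHGC3 was lower in all 3 compound 1 libraries than in any DMSO library, with a log2 change of -0.41 (SE 0.09, unadjusted p = 0.000457, edgeR adjusted p = 0.0511), and was the only member with an unadjusted p under 0.05, a threshold that 15% of all genes passed (7.69% of all genes as lower). It was called lower with DESeq2 (adjusted p = 0.0167), with a replicate block (0.0111), with no filter (0.00303), with all 9 libraries in a single edgeR fit (0.0254), with RLE size factors (0.0489) and without compound 1 replicate 1 (log2 change -0.34, adjusted p = 0.00415). It was not called with scaling by library size alone (edgeR adjusted p = 0.0681), with at least 10 counts in every library (0.0545) or when any other library was left out (0.0722 to 0.313). PCDHGB1 was also below DMSO in every compound 1 library, with a log2 change of -0.79 (SE 0.41, edgeR adjusted p = 0.377). The log2 changes of the others were 0.22 (SE 0.32) for PCDHA4, -0.16 (SE 0.35) for PCDHAC2, 0.23 (SE 0.38) for PCDH9 and -0.13 (SE 0.08) for PCDH1, each with overlapping groups. As each library was left out, the change of PCDHA4 ran from 0.095 to 0.35. That of PCDH1 ran from -0.19 to -0.097, with a lowest edgeR adjusted p of 0.0615. No beta gene had enough reads to be tested in this comparison.

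**Figure D5:**
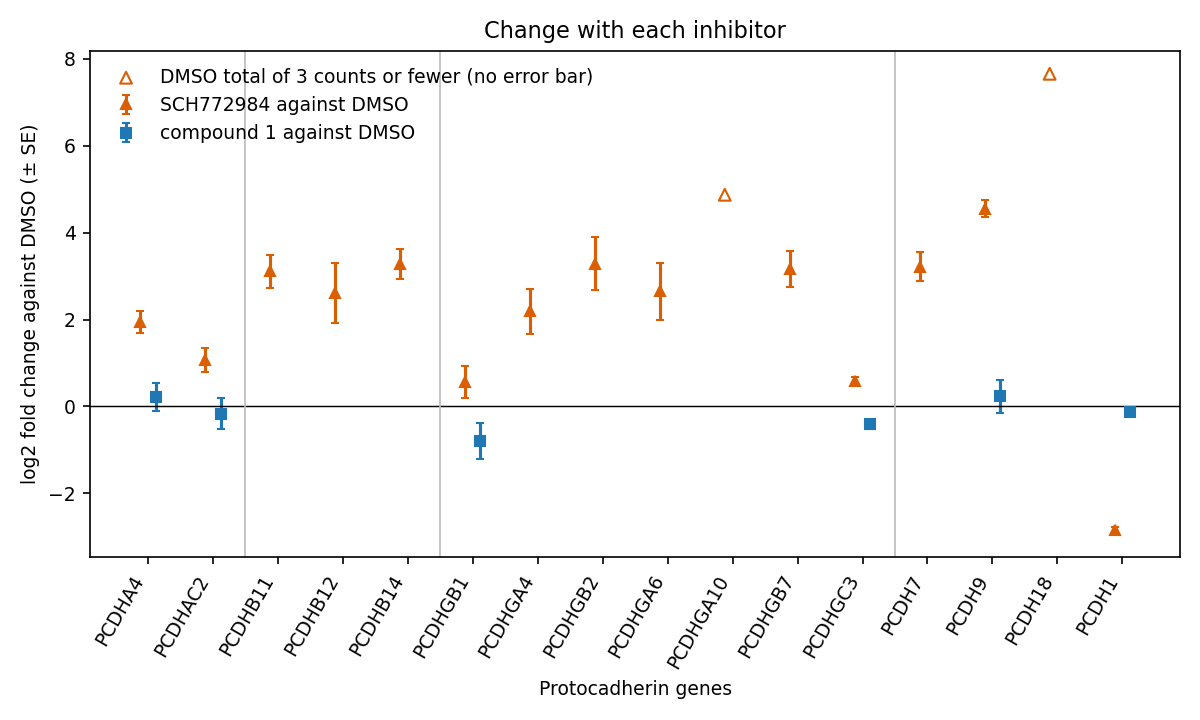
Log2 fold change against DMSO with its SE for the tested protocadherin genes, with triangles for SCH772984 and squares for compound 1; open triangles mark PCDHGA10 and PCDH18, which had 1 DMSO read each and have no error bar. SCH772984 changes run from -2.85 to 7.65, and the 6 compound 1 changes lie between -0.79 and 0.23.

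Set against compound 1 at the same dose and time, SCH772984 gave 15 higher genes and 1 lower gene (PCDH1) of 16 tested, where 66.3% of 13863 genes were called, 33.7% higher and 32.6% lower. Of the 16, 11 had fewer than 10 reads in every compound 1 library and could pass only through their SCH772984 libraries. All 11 were among the 15 higher, and of all 598 genes of that kind 557 (93.1%) were called higher. Without compound 1 replicate 1, 17 protocadherin genes were called higher and 1 lower. The comparison shares its SCH772984 libraries with the first, so its values are given beside them. PCDHGC3 was 1.02 higher on the log2 scale (SE 0.10, edgeR adjusted p = 2.23e-08), and PCDH1 was 2.71 lower (log2 change -2.71, SE 0.11, edgeR adjusted p = 3.30e-14). PCDHGB1, which was not called against DMSO, was 1.36 higher (SE 0.43, edgeR adjusted p = 0.00767), but not without SCH772984 replicate 3 (1.06, adjusted p = 0.0643). PCDH9 was 4.33 higher (SE 0.19) and PCDH7 4.06 higher (SE 0.40), with edgeR adjusted p-values of 8.84e-14 and 1.58e-08. PCDH18 and PCDHGA10 had no read with compound 1 and were at least 89.1-fold and at least 13.0-fold higher, against a floor of 3 reads over the group. The other 9 genes were higher by 1.23 to 3.50 on the log2 scale. The change of PCDHB12 (2.95) was 4.22 without compound 1 replicate 1, that of PCDHB14 (3.50) was 4.36 without compound 1 replicate 2, and that of PCDHGA6 (2.03) was 4.20 without compound 1 replicate 3.

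Genes that act on the clusters or with their products were counted against the 72.8% of all genes that were called with SCH772984. Of 12 regulators of the clusters (CTCF, cohesin and factors that silence them), 3 were higher (STAG1, STAG2 and REST) and 6 lower, with a median log2 change of -0.14 against 0.03 over all genes tested. RAD21 and SMC1A, subunits of the cohesin ring that brings promoters and enhancers of the clusters together, were 0.91 and 0.79 lower on the log2 scale (changes of -0.91, SE 0.06, and -0.79, SE 0.07; edgeR adjusted p = 2.57e-17 and 2.94e-14). CTCF itself went from 85.1 to 51.6 CPM (log2 change -0.73, SE 0.08, edgeR adjusted p = 1.15e-11).

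Of 15 intracellular partners, 14 were tested, of which 4 were higher and 6 lower with SCH772984, and in both lists the share called was about that of all genes. SET, which binds the tail of PCDH7, and PPP1CA, a catalytic subunit of PP1, changed by -0.96 (SE 0.06) and -0.66 (SE 0.07) on the log2 scale (edgeR adjusted p = 2.91e-18 and 3.42e-12). Of 7 genes of the proteases that shed and cleave protocadherins (ADAM10, the presenilins and the non-catalytic subunits of gamma-secretase), 5 were higher and 1 (APH1A) was lower. APH1B rose from 4.82 to 19.1 CPM (log2 change 1.98, SE 0.16, edgeR adjusted p = 5.31e-15), and NCSTN changed by 0.53 (SE 0.06, edgeR adjusted p = 3.26e-10).

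Other members of the superfamily were given for comparison. Of 23 CDH-named cadherins, 5 were tested, with 4 higher and 1 (CDH5) lower with SCH772984, where 37.2% of all genes were called higher and 35.5% lower. CDH10 rose from 1.80 to 41.3 CPM (log2 change 4.51, SE 0.17) and CDH24 from 16.2 to 38.0 CPM (1.23, SE 0.12), with edgeR adjusted p-values of 4.61e-27 and 1.29e-12. Of 20 other large cadherins, 13 were tested and 10 were higher, among them FAT4, from 2.87 to 80.9 CPM (log2 change 4.81, SE 0.13, edgeR adjusted p = 5.49e-32), and CLSTN3, from 27.8 to 113 CPM (2.02, SE 0.08, edgeR adjusted p = 1.36e-25). The other 3 were not called. FAT2, among the 10 higher, had 2, 1 and 1 reads with DMSO and could be tested only through its SCH772984 libraries, so its call is not counted as support.

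The neighbours of the clusters were counted in the same way. Within 500 kb of the clusters lay 29 other protein-coding genes, of which 24 were tested and 6 were higher and 9 lower with SCH772984, with a median log2 change of -0.10. DIAPH1, next to the gamma cluster, changed by -0.97 (SE 0.06, edgeR adjusted p = 2.58e-19), and APBB3 rose by 2.24 (SE 0.15, edgeR adjusted p = 3.69e-15). Of the 3 that lie between the first and the last clustered gene, SLC25A2 and AC244517.10 had no read, and TAF7 changed by -0.34 (SE 0.06, edgeR adjusted p = 3.59e-06). With compound 1, edgeR and DESeq2 each called 0 of the 12 regulators, 14 partners, 7 ADAM10 and gamma-secretase genes, 4 CDH-named cadherins, 11 other large cadherins and 24 neighbours tested, and 0, 3, 0, 1, 3 and 3 of them had an unadjusted edgeR p under 0.05. The 11 PCDH-named genes that are not protein-coding had between 0 and 5 reads in any library, and 6 of them, including all 4 annotated antisense genes of PCDH9, had none.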

How the data were processed

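Whole-gene read counts were analysed in 9 RNA-seq libraries of MIA PaCa-2 cells, 3 per group. The authors deposited unnormalized counts per gene for hg38; per the labels' processing notes, reads were aligned with HISAT2 2.0.5 and counted with featureCounts 1.5.0-p3, and the strand and shared-read settings are not given in the sources used here. All 58735 gene IDs matched GENCODE release 29, from which exons were taken. Genes passing filterByExpr (minimum count 10, minimum total 15) were tested with edgeR 4.0.16 (R 4.3.3): TMM scaling, robust quasi-likelihood fit of the libraries of each comparison, two-sided, Benjamini-Hochberg adjustment over all genes tested, called under 0.05. The fit was tested on simulated data with known changes. CPM were scaled by TMM factors over all 9 libraries. Members and gene lists were chosen with earlier results of these data known. Values in every library are given for each member called in any comparison and for the highest member per length of each cluster and of the nonclustered genes in DMSO. From each list, the 2 genes with the smallest adjusted p are named, and CTCF, STAG1, STAG2, REST, APH1A, CDH5, FAT2, PCDHAC1, PCDHB10, PCDHB13, PCDH12, PCDH15, PCDH17 and TAF7 were added after their values were seen. Same-numbered libraries did not deviate together (r from -0.079 to 0.107), so replicate numbers were not treated as pairs. Replicates differed beyond sampling noise (chi-square per degree of freedom 2.34 to 10.1), so none was merged. Alternatives were DESeq2 1.42.0, other scalings, filters and thresholds, a fit of all 9 libraries, a replicate block and leaving out each library.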

Additional observations from a re-analysis of the deposited data

How the results depend on the processing

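The directions of the 15 members called between SCH772984 and DMSO were the same under every alternative that could be fitted. For 10 of them, with fewer than 10 reads in every DMSO library, the filter could be passed only through the SCH772984 libraries. The filter thus favoured their direction, and its stability is not counted as support. The number higher with SCH772984 than with DMSO was 25 with no filter and 3 with at least 10 counts in every library, which leaves 5 members to test, and 14 to 17 when each library was left out. Against compound 1 it was 4 with at least 10 counts in every library and 14 to 18 when each library was left out. The shares of all genes called under these alternatives were not computed, so these counts are not read as results about the members. With no filter, the median log2 change of all genes between SCH772984 and DMSO was 0.36, against 0.03 with the filter. A 2-fold minimum removed PCDHGC3 (log2 change 0.59). The number lower with compound 1 than with DMSO was 0, but 1 (PCDHGC3) at an unadjusted p, with DESeq2, with no filter, with RLE size factors, with all 9 libraries in a single fit and with the replicate block, and 0 to 1 when each library was left out; the cause was not tested. The replicate block changed no other call. DESeq2 gave no adjusted p for 4 of the 6 members tested with compound 1. Uncalled changes with compound 1 changed sign: that of PCDH9 ran from -0.029 (without DMSO replicate 3) to 0.51 and that of PCDHAC2 from -0.46 to 0.086 (without compound 1 replicate 1) as each library was left out. Scaling by library size alone moved the median log2 change of all genes with SCH772984 from 0.03 to 0.20, and the summed levels to 15.8 CPM for alpha with SCH772984 and to 64.4 and 121 CPM for gamma with DMSO and SCH772984. With exon bases that any other gene overlaps on either strand left out of the length, the DMSO level per kilobase was 0.616 CPM for PCDHAC2 and 19.7 CPM for PCDHGC3. At this depth, 50 of the 66 members could not be tested.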
